A study of Drosophila melanogaster with 9 samples.

Results

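The genes described here drive DNA replication and cell division in *Drosophila* S2R+ cells. They are the members of a list of 38 gene names, and the list was drawn up with earlier results of these data known. Of these, 36 had a row among the 17559 genes in the count data, and all 36 passed the filter on low counts that left 7406 genes for testing. Mcm3 and Orc1 were not matched to a row and were not analysed here. The genes comprised 12 S-phase genes (helicase, origin and DNA synthesis factors), 9 genes of G1/S control and 15 mitotic genes.

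S2R+ is an adherent line that originated from late embryos of the Oregon R strain. Cells were treated with a first (KD1) or a second (KD2) double-stranded RNA (dsRNA) against Hrb98DE, an hnRNP that binds pre-mRNA, or with a dsRNA against bacterial lacZ as control. All groups took up dsRNA during serum starvation of 6 h and were kept at 25 °C. This treatment was repeated 2 times, and collection was on day 5 after the first. Starvation was thus common to knockdown and control. Each group held 3 replicates (numbered 1, 2 and 3 for lacZ, 1, 3 and 4 for KD1 and 1, 2 and 4 for KD2), and polyadenylated RNA was sequenced. The labels do not say whether replicates were separate cultures. The methods of the study call them biological replicates and describe more for each dsRNA than the 3 analysed here.

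Before S phase, the origin recognition complex and dup (the fly Cdt1) load the MCM helicase onto DNA, and geminin blocks further loading. Cyclin D with Cdk4 and cyclin E with Cdk2 phosphorylate Rbf, the retinoblastoma protein, which frees the transcription factors E2f1 and Dp to switch on genes of DNA synthesis. Cyclins A, B and B3 with Cdk1, activated by the phosphatase stg (string, the fly Cdc25), then bring the cell into mitosis. The spindle checkpoint holds the cell there until the anaphase-promoting complex, activated by fzy (the fly Cdc20), destroys the cyclins.

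Libraries held 13040608 to 15931035 assigned reads. Hrb98DE fell to 14.1% of its lacZ level in KD1 and to 15.5% in KD2, and its paralog Hrb87F fell to 41.7% and 23.3%, so a difference from lacZ cannot be told apart between depletion of either gene. Of 9 hemocyte markers 8 passed the filter: crq, Pvr, ush, srp and Pxn were well represented, Hml, vkg and Col4a1 were low and NimC1 was near 0. Their summed normalised counts were 27974 to 28164 in lacZ, 28403 to 28823 in KD1 and 28871 to 29658 in KD2. At an adjusted p under 0.05 in DESeq2, 4 of the 9 were higher in each knockdown (Hml, Pxn, vkg and Col4a1). Of all genes tested 9.71% were higher in KD1 and 11.3% in KD2. Without a call, crq went the other way (log2 fold changes of -0.10 and -0.15), as did srp in KD1 (-0.03). Of 6 markers of other cell types, elav alone passed the filter, and their sums were 381 to 404, 321 to 346 and 375 to 396. Whether this has a part in the results was not tested. In bulk RNA, fewer cells in a cycle phase and less RNA per cell cannot be told apart.

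In control cells, the levels of these genes spanned a wide range on a per-length scale (RPKM, reads divided by exon length and by library total). The clamp PCNA, which tethers polymerase to DNA, was the highest with 363 ± 19.3 RPKM (SD, n = 3), followed by RnrS, the small subunit of ribonucleotide reductase, at 232 ± 11 RPKM and geminin at 168 ± 2.99 RPKM. Among mitotic genes CycB was highest (137 ± 6.36 RPKM) and the checkpoint kinase Mps1 lowest (8 ± 0.659 RPKM). The G1/S genes ran from Dp (69.1 ± 0.119 RPKM) down to CycE (13.1 ± 0.31 RPKM). The lowest S-phase genes were Orc2 (7.44 ± 0.468 RPKM) and Orc5 (8.13 ± 1.25 RPKM), which did not differ from each other or from Mps1 beyond their spread. RnrL, the large reductase subunit, and polo likewise overlapped at 99.8 ± 10.1 and 95.7 ± 8.76 RPKM.

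**Figure D1:**
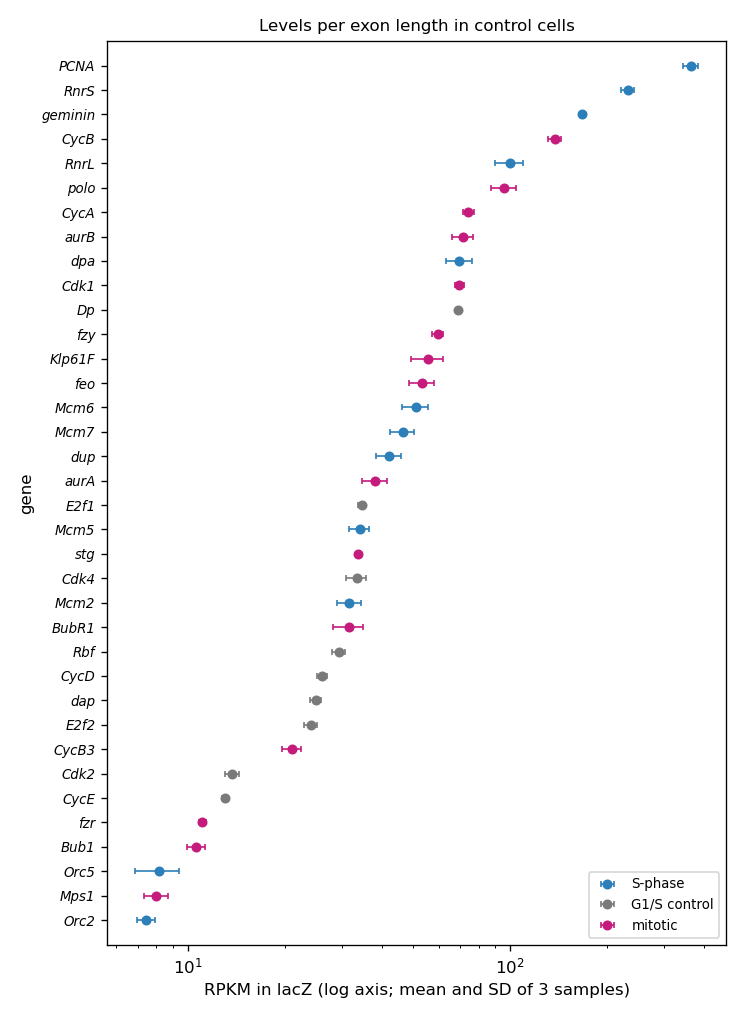
RPKM of the 36 genes in lacZ on a log axis, with points for the mean and bars for the SD of 3 samples. PCNA stands at the top with 363 RPKM and Orc2 at the bottom with 7.44 RPKM, and the G1/S genes lie between 13.1 RPKM (CycE) and 69.1 RPKM (Dp).

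The first question was whether depletion of Hrb98DE altered these genes. A gene was counted as past the threshold at an adjusted p under 0.05 in DESeq2 with a change over 1.3-fold. In KD1 against lacZ 0 of 36 genes were past it, where 2.24% of all genes tested were past it as higher and 5.13% as lower. In KD2 against lacZ the count was also 0 of 36, where 2.93% were higher and 5.2% lower. The quasi-likelihood test of edgeR gave 0 in both comparisons as well, and at an unadjusted p under 0.05 in DESeq2 9 of the 36 genes differed in KD1 (25% of them, against 31.7% of all genes) and 8 in KD2 (22.2%, against 33.2%). The 95% Wald interval of the fold change lay inside 1.3-fold in either direction for 32 of 36 genes in KD1, all but Mcm2, Orc5, RnrL and Mps1. It did so for 32 of 36 in KD2, all but Orc5, RnrL, CycE and Mps1.

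With the adjusted p alone, 2 genes were higher in KD1 (RnrL and BubR1) and 1 lower (CycE), beside 9.71% and 11.5% of all genes. In KD2 4 were higher (RnrL, BubR1, E2f1 and Mps1) and 1 lower (CycE), beside 11.3% and 12.3%. Among the 36 genes these are shares of 5.56% and 11.1% on the higher side, close to or below the background. The groups did not overlap for 5 genes that were higher and 3 that were lower in KD1, where 19.2% and 20.2% of all genes did so. In KD2 these counts were 6 and 2, where the background was 18.6% and 19.5%.

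**Figure D2:**
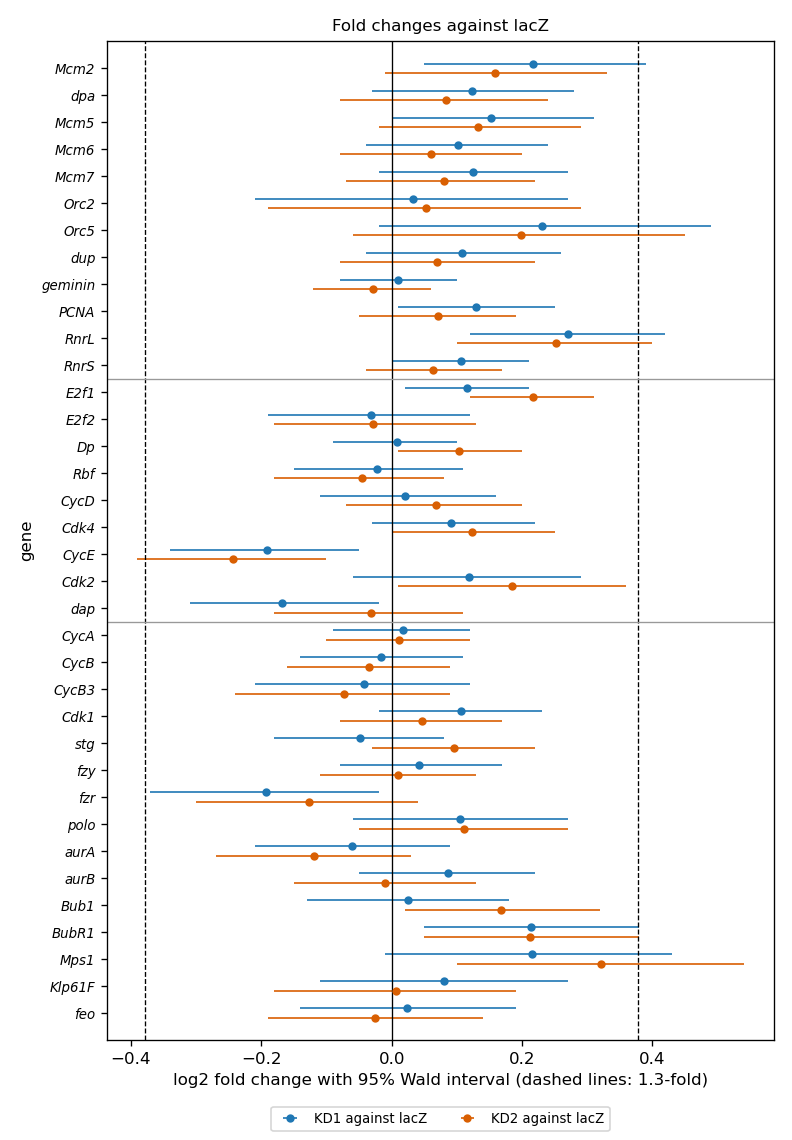
Log2 fold change (x axis) of each gene against lacZ in KD1 and KD2, with bars for the 95% Wald interval and dashed lines at 1.3-fold. No point lies outside the dashed lines, and the highest is Mps1 in KD2 at 0.32.

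The DNA synthesis genes held the member with the clearest difference among S-phase genes. RnrL (chromosome 2L, 10325026 to 10327943, minus strand) makes deoxynucleotides together with RnrS, and its normalised read counts were 3409.8, 4222 and 3640.2 in lacZ, 4584, 4301 and 4717 in KD1 and 4695, 4182 and 4544 in KD2. All KD1 samples exceeded all lacZ samples, whereas KD2 replicate 2 lay just below lacZ replicate 2. In KD1 RnrL was higher by a log2 fold change of 0.27 ± 0.07 (SE) (adjusted p = 0.00293, DESeq2), and in KD2 by 0.25 ± 0.07 (adjusted p = 0.00561). Without lacZ replicate 1 the adjusted p became 0.0502 in KD1 and 0.0767 in KD2, and without KD2 replicate 1 it became 0.0513 in KD2. RnrS was counted at 5080.1, 5636 and 5441.5 in lacZ, 5691, 5693 and 6024 in KD1 and 5712, 5463 and 5710.5 in KD2, and PCNA at 5419, 6088 and 5490.2 in lacZ, 6329, 6010.2 and 6257 in KD1 and 6062, 5500.1 and 6296 in KD2. For RnrS the KD1 samples lay above lacZ by a small margin, and for PCNA lacZ replicate 2 lay among the knockdown samples. Neither passed the test (log2 fold changes 0.11 ± 0.05 and 0.13 ± 0.06 in KD1).

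The helicase subunits moved within a narrow band, and 0 of 5 passed the test in either knockdown. Mcm2 was counted at 1282, 1499 and 1249.5 in lacZ, 1595, 1418.5 and 1676 in KD1 and 1609, 1354 and 1535.5 in KD2. For dpa, the fly Mcm4, the counts were 2851, 3480.3 and 3029.8 in lacZ, 3530.0, 3149 and 3521 in KD1 and 3554, 2999.5 and 3361 in KD2. In both genes lacZ replicate 2 was the highest control and overlapped the knockdown samples. Mcm5 gave 1148, 1338 and 1178 in lacZ, 1378.5, 1258 and 1441 in KD1 and 1408, 1219 and 1392 in KD2. Mcm6 gave 1939, 2324 and 1966 in lacZ, 2204, 2227 and 2256 in KD1 and 2257.5, 2033 and 2212 in KD2. Mcm7 gave 1598, 1845 and 1541.5 in lacZ, 1836, 1756 and 1843 in KD1 and 1779, 1629.6 and 1862 in KD2. In these genes too, replicate 2 was the highest lacZ sample. Over the 5 subunits the median was a log2 fold change of 0.12 for KD1 and 0.08 for KD2, and the largest was that of Mcm2 in KD1 (0.22 ± 0.09, adjusted p = 0.0576, DESeq2). Mcm2 passed in KD1 with KD1 and lacZ alone in the fit (0.0373), without KD1 replicate 3 (0.0164), without KD2 replicate 1 (0.0476) or 2 (0.0263) and without lacZ replicate 2 (0.00308), and in KD2 without KD2 replicate 2 (0.0386) or lacZ replicate 2 (0.0205). Mcm7 shares 81.7% of its exon bases with an antisense RNA gene on the other strand, whose normalised counts were 0 to 2.8, and since the strand setting of the counting is not given in the sources used here its counts are uncertain.

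Origin factors were also without a call. Orc2, a subunit of the origin recognition complex, was counted at 213, 208 and 229 in lacZ, 217, 217 and 230.4 in KD1 and 231, 194 and 247.5 in KD2. Its partner Orc5 was counted at 174, 237 and 190.2 in lacZ, 242, 222 and 243 in KD1 and 240.2, 242 and 208.5 in KD2. Both had few reads and overlapped between groups, and the interval of Orc5 in KD1 ran from -0.02 to 0.49. The loader dup gave 1777, 2141 and 1869 in lacZ, 2110.1, 1954 and 2174 in KD1 and 2146, 1863 and 2067.5 in KD2. Its inhibitor geminin gave 2638, 2587 and 2561 in lacZ, 2634.5, 2584 and 2621 in KD1 and 2559, 2591 and 2480.4 in KD2. The counts of geminin hardly varied, with log2 fold changes of 0.01 ± 0.05 and -0.03 ± 0.05, while for dup lacZ replicate 2 was again the highest control.

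Of the E2F and RB genes, the activator E2f1 (chromosome 3R, 21620304 to 21660871, minus strand) was higher in KD2. Its counts were 3164, 3387 and 3223 in lacZ, 3485, 3451 and 3662 in KD1 and 3862.5, 3774 and 3726 in KD2, so that all 6 knockdown samples exceeded all lacZ samples and all KD2 samples exceeded all KD1 samples. In KD2 the log2 fold change reached 0.22 ± 0.05 (adjusted p = 0.000168, DESeq2). The call held without any single sample, with adjusted p from 0.000103 to 0.0111, but was lost with a replicate block in the fit (0.0964). In KD1 the log2 fold change was 0.12 ± 0.05 (adjusted p = 0.0802), and E2f1 passed there without lacZ replicate 2 (0.0394). The repressor E2f2 was counted at 730.3, 674 and 703 in lacZ, 669.5, 692.5 and 699 in KD1 and 649, 753.5 and 664.5 in KD2. Dp, the partner of both, gave 3215, 3278 and 3188 in lacZ, 3154, 3236 and 3347 in KD1 and 3569, 3376 and 3461 in KD2. Rbf gave 1471, 1604 and 1588 in lacZ, 1570.5, 1423 and 1597 in KD1 and 1549.9, 1429.6 and 1535.5 in KD2. Only Dp among these had KD2 samples all above lacZ, and 0 of the 3 passed the test. E2f2 shares 19.9% of its exon bases with Mpp6 on the other strand (170.3 to 239.8 normalised counts).

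CycE (chromosome 2L, 15727581 to 15748150, minus strand), the cyclin that activates Cdk2 at the start of S phase, was the gene that was lower. It was counted at 957, 954 and 974 in lacZ, 858, 832 and 837 in KD1 and 882, 736 and 814.5 in KD2. All 6 knockdown samples lay below all lacZ samples, whose SD was 11.0 counts. Relative to lacZ, CycE stood at a log2 fold change of -0.19 ± 0.07 for KD1 (adjusted p = 0.0456, DESeq2) and -0.24 ± 0.07 for KD2 (adjusted p = 0.00657). The call in KD1 was kept in 2 of 9 fits that left out 1 sample (those without KD2 replicate 1 or 2), with adjusted p up to 0.182, and it was lost with TMM factors (0.052) and without the filter on low counts (0.0595). In KD2 it was lost without KD2 replicate 2 (0.0711) and without lacZ replicate 3 (0.0519).

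The other G1 genes did not pass the test. Cdk2, the kinase partner of CycE, gave 457.5, 489.6 and 432 in lacZ, 500.0, 491 and 509.7 in KD1 and 558, 474 and 535 in KD2. The inhibitor of that kinase, dap (dacapo), gave 926, 894 and 939 in lacZ, 759, 829 and 869 in KD1 and 900.2, 954.5 and 845 in KD2. KD1 samples were above lacZ for Cdk2 and below it for dap, with log2 fold changes of 0.12 ± 0.09 and -0.17 ± 0.07. Cdk2 shares 43.9% of its exon bases with CG17267 on the other strand (0 to 3 normalised counts). CycD was counted at 950.0, 910.2 and 946.5 in lacZ, 939.7, 907.5 and 1001 in KD1 and 981.5, 1029.7 and 930.5 in KD2. Cdk4 was counted at 1239, 1118 and 1239.6 in lacZ, 1300.3, 1300.1 and 1225 in KD1 and 1323, 1293 and 1298 in KD2. For CycD the groups overlapped, and for Cdk4 the KD2 samples lay above lacZ, whose replicate 2 was the lowest.

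**Figure D3:**
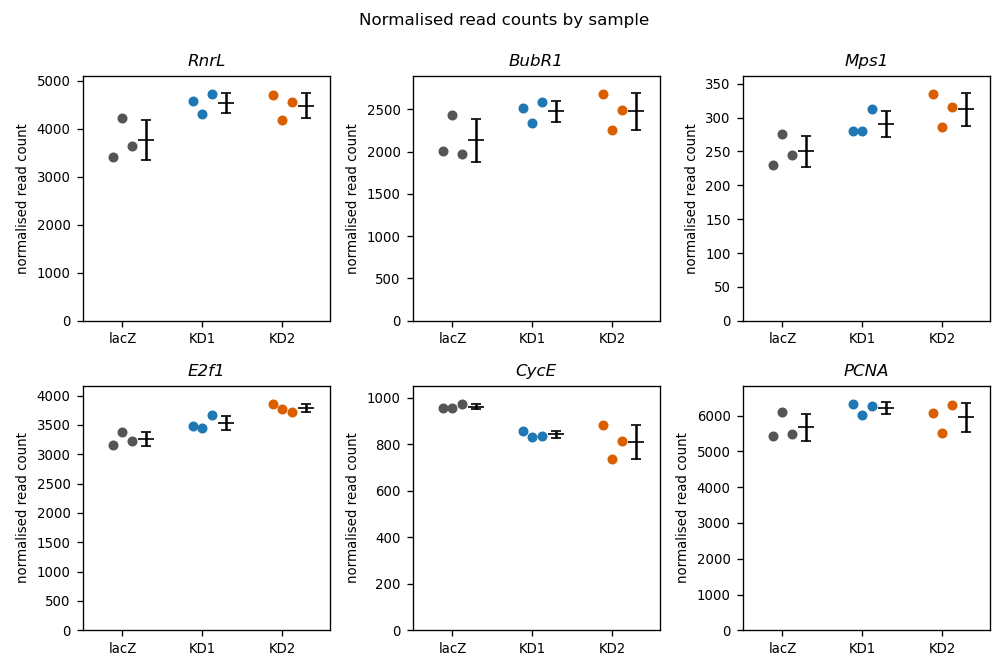
Normalised read counts (y axis, from 0) of 6 genes in each lacZ, KD1 and KD2 sample, with the mean and SD of 3 samples beside the points. CycE is lower and E2f1 higher in all 6 knockdown samples, and for RnrL and BubR1 lacZ replicate 2 reaches the knockdown samples.

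Within the mitotic group, the spindle checkpoint held both genes that were called. BubR1 (chromosome 2R, 5969099 to 5974385, minus strand), which inhibits fzy while chromosomes are unattached, was counted at 2005, 2430.1 and 1976 in lacZ, 2513, 2343 and 2583 in KD1 and 2682, 2253 and 2495 in KD2. The highest lacZ sample, replicate 2, exceeded KD1 replicate 3 and KD2 replicate 2. BubR1 was higher by 0.21 ± 0.08 on the log2 scale for KD1 (adjusted p = 0.0489, DESeq2) and by 0.21 ± 0.08 for KD2 (adjusted p = 0.0466). Both lay near the threshold: edgeR gave 0.0558 and 0.056, and the calls were kept in 4 of 9 and 3 of 9 fits without 1 sample, being lost in both comparisons without KD1 replicate 1 or 4, KD2 replicate 4, or lacZ replicate 1 or 3, and in KD2 also without KD2 replicate 1. The call in KD1 was also lost with an RPKM filter (0.0529), and that in KD2 without a filter (0.0505) or with KD2 and lacZ alone in the fit (0.0633). Mps1 (chromosome 3R, 17671271 to 17673828, plus strand), the kinase at the top of the checkpoint, was counted at 229.7, 275 and 245.5 in lacZ, 279.6, 279.9 and 313 in KD1 and 335, 286.5 and 316 in KD2. All knockdown samples were above all lacZ samples, at a log2 fold change of 0.21 ± 0.11 in KD1 (adjusted p = 0.169) and 0.32 ± 0.11 in KD2 (adjusted p = 0.0211). The KD2 call was kept in 5 of 9 fits, and was lost without KD2 replicate 1 or 4 or lacZ replicate 1 or 3, with adjusted p up to 0.177. Bub1, a scaffold of the checkpoint, was counted at 662, 715.5 and 615 in lacZ, 655, 684 and 691 in KD1 and 767.5, 719.5 and 753 in KD2 and had KD2 samples above both other groups (log2 fold change 0.17 ± 0.08, adjusted p = 0.102).

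The mitotic cyclins and their kinase were near lacZ. CycA was counted at 3042, 3331 and 3120.5 in lacZ, 3194, 3075 and 3340.5 in KD1 and 3285, 3114 and 3174 in KD2. CycB was counted at 5956, 6520.1 and 5846 in lacZ, 6072, 5643 and 6392 in KD1 and 6252, 5623 and 6006 in KD2. The groups overlapped for both, and their log2 fold changes were between -0.04 and 0.02. CycB3 gave 859, 968 and 833 in lacZ, 873, 803 and 909 in KD1 and 923, 799 and 807 in KD2. Cdk1, the kinase of these cyclins, gave 1055, 1142 and 1097 in lacZ, 1140.2, 1189 and 1220.0 in KD1 and 1170.3, 1080.2 and 1150.3 in KD2. The phosphatase stg gave 1523, 1554 and 1462 in lacZ, 1404, 1386 and 1601 in KD1 and 1642, 1610.0 and 1598 in KD2. For stg the KD2 samples were above lacZ and the KD1 samples spread around it.

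For the activators of the anaphase-promoting complex, fzy was counted at 1727.5, 1838 and 1654 in lacZ, 1812.5, 1709 and 1857 in KD1 and 1768, 1664 and 1829 in KD2. Its relative fzr (the fly Cdh1), which acts at mitotic exit and in G1, was counted at 439, 460.3 and 456 in lacZ, 389, 388 and 409.9 in KD1 and 435, 389.6 and 416 in KD2. All 6 knockdown samples of fzr lay below all lacZ samples, at log2 fold changes of -0.19 ± 0.09 and -0.13 ± 0.09, with adjusted p of 0.105 and 0.32 in DESeq2. In edgeR fzr passed in KD1.

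Mitotic kinases and spindle proteins did not pass the test. The kinase polo gave 3873, 4661 and 3963 in lacZ, 4514, 4196 and 4733 in KD1 and 4802, 3989 and 4710.2 in KD2. Aurora A (aurA), which acts at centrosomes, gave 834, 984 and 824 in lacZ, 833, 851 and 852 in KD1 and 835, 782 and 818 in KD2. Aurora B (aurB), the kinase of the chromosomal passenger complex, gave 1131, 1329.9 and 1231 in lacZ, 1300.3, 1298 and 1323 in KD1 and 1276, 1169.9 and 1218 in KD2. In each of these lacZ replicate 2 was the highest control, and for aurA and aurB it was the highest of all samples. Klp61F, the motor that pushes spindle poles apart, gave 2828, 3577 and 2998 in lacZ, 3438, 3148 and 3363 in KD1 and 3520.4, 2642 and 3277 in KD2. The midzone bundler feo gave 1769, 2103 and 1773 in lacZ, 1989, 1797 and 1958 in KD1 and 1930.3, 1636 and 1979 in KD2. For both, lacZ replicate 2 was the highest of the 9 samples and KD2 replicate 2 the lowest. Klp61F shares 11% and aurA 9.7% of exon bases with a gene on the other strand.

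The comparison of S-phase with mitotic genes was made on medians, with no test. S-phase genes had a median of 0.12 (log2) for KD1 and 0.08 for KD2, with 12 of 12 and 11 of 12 genes above 0. The mitotic median was 0.02 and 0.01, with 10 of 15 and 9 of 15 above 0. Of all 7406 genes tested 3708 and 3761 were above 0. Among the other pathway genes 30 and 27 of 39 S-phase genes and 55 and 51 of 86 mitotic genes were. All genes come from the same libraries, so these counts are not independent of each other. Leaving out 1 sample moved the S-phase median between 0.082 (without lacZ replicate 1) and 0.198 (without lacZ replicate 2) in KD1, and between 0.041 and 0.156 in KD2 without the same libraries. The mitotic median ran from 0.007 (without lacZ replicate 3) to 0.083 (without lacZ replicate 2) in KD1. In KD2 it ran from -0.015 (without lacZ replicate 1) to 0.061 (without lacZ replicate 2), and it was below 0 in 4 of 9 such fits (also without lacZ replicate 3, KD2 replicate 1 or KD2 replicate 4), so its sign is not settled. For G1/S genes it was 0.01 and 0.07, and for all genes tested it was 0 in both comparisons. The replicates themselves varied as much, since the S-phase median of single samples had an SD of up to 0.127 within a group.

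**Figure D4:**
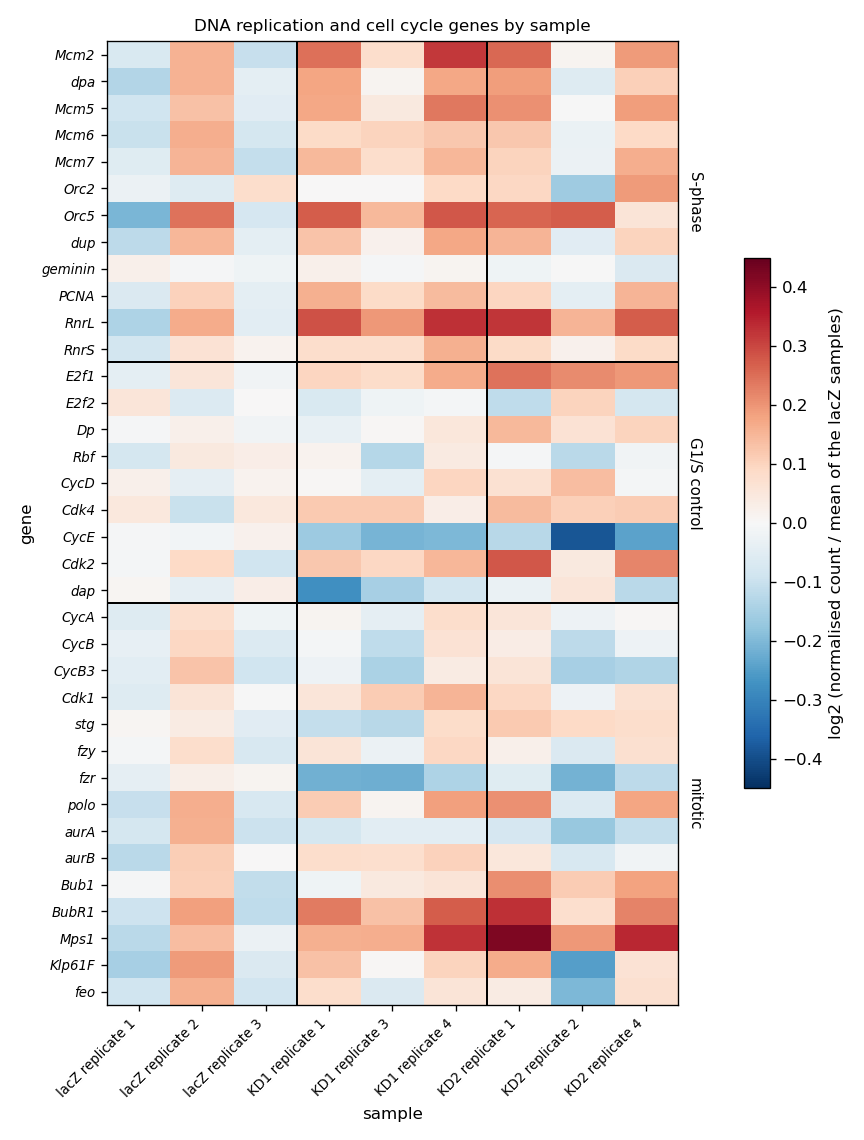
Log2 ratio of each sample's normalised count to the lacZ mean, with genes in rows by group and the 9 samples in columns. The lacZ replicate 2 column is red for nearly all S-phase and mitotic rows, and the KD2 replicate 2 column is paler or bluer than the other KD2 columns.

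For S-phase and mitotic genes, single libraries of a group differed by as much as the groups did. Of 36 genes 29 had lacZ replicate 2 as the highest lacZ sample (80.6%), against 39.5% of all genes tested, and 29 had KD2 replicate 2 as the lowest KD2 sample, against 38%. All 15 mitotic genes and 10 of 12 S-phase genes, but 4 of 9 G1/S genes, were highest in lacZ replicate 2. Its median log2 deviation from the other lacZ samples was 0.23 over S-phase genes, 0.17 over mitotic genes and -0.02 over G1/S genes. In KD1, replicate 4 was the highest for 29 genes (80.6%, against 35.6% of all genes) and replicate 3 the lowest for 25 (69.4%, against 36%). Across the 36 genes the deviation of lacZ replicate 2 had a Pearson r of 0.04 with exon length, as a description over genes of the same libraries. Among 136 other replication and cell cycle genes lacZ replicate 2 was the highest for 99 and KD2 replicate 2 the lowest for 96. These libraries were also the least like their group in all genes. The chi-square per degree of freedom was 14.21 between lacZ replicates 1 and 2 and 12.28 between KD2 replicates 1 and 2. It was 8.33 between lacZ replicates 2 and 3 and 6.76 between KD2 replicates 2 and 4. Pairs without either library had 4.25 to 5.31.

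**Figure D5:**
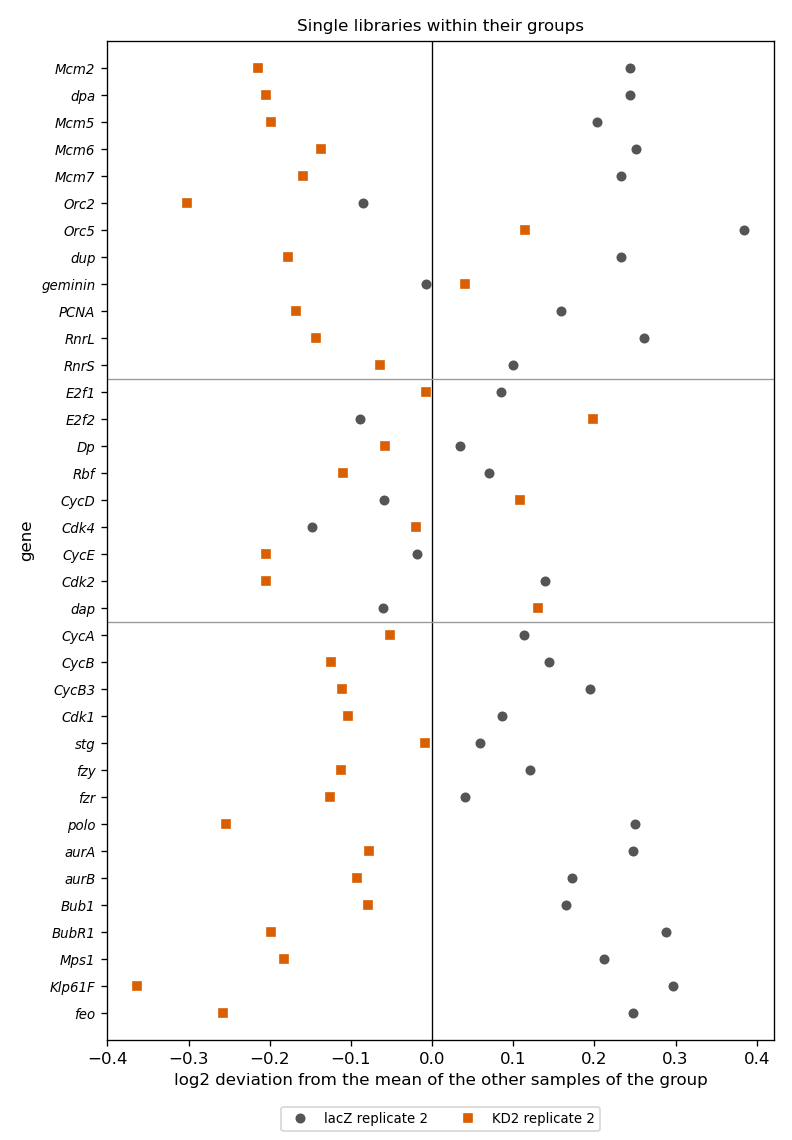
Log2 deviation (x axis) of lacZ replicate 2 and of KD2 replicate 2 from the mean of the other samples of their group, for each gene. The lacZ points lie right of 0 for all mitotic genes, and the KD2 points lie left of 0 for most genes.

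Which genes were called therefore depended on single libraries. Without lacZ replicate 2, 13 of 36 genes were higher at an adjusted p under 0.05 in KD1 (36.1%, against 11.1% of all genes), among them Mcm2, dpa, Mcm5, Mcm6, Mcm7, PCNA and RnrS, and 7 of 36 in KD2 (19.4%, against 12.4%). Without lacZ replicate 1 the counts were 0 and 1, where 5.23% and 6.43% of all genes were higher, and without lacZ replicate 3 they were 1 and 2, where 5.43% and 6.82% were. Without KD2 replicate 2, 7 were higher in KD2 (19.4%, against 11.7% of all genes), and without KD2 replicate 1, 1 was (2.78%, against 6.64%). With both lacZ replicate 2 and KD2 replicate 2 left out, 14 were higher in KD1 and 15 in KD2 (13.1% and 14.7% of all genes). That pair was picked after the values of these genes were seen. Removing a high control or a low knockdown sample widens the difference by construction. For 29 of the 36 genes lacZ replicate 2 was the highest control, and for 29 KD2 replicate 2 was the lowest KD2 sample. The counts without either of them, or without both, are therefore no support for a difference. Removing a low control narrows the difference in the same way. Of the 36 genes 18 had lacZ replicate 1 as the lowest control (50%, against 33% of all genes). The counts without it therefore do not speak against a difference either, and every such fit has fewer samples.

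KD1 and KD2 were then compared with each other. Past the threshold were 0 of 36 genes (0.0135% of all genes), and at the adjusted p alone also 0 (0.162%), with edgeR giving 0 as well. At an unadjusted p under 0.05 there were 3 genes (8.33%, against 5.18% of all genes). An adjusted p was given for 20 of the 36, the smallest being 0.426, and the other 16 were removed by independent filtering. Log2 differences ran from -0.14 to 0.10, and the 95% interval lay inside 1.3-fold for 36 of 36. The groups did not overlap for aurB, higher in KD1, and for E2f1, Dp and Bub1, lower in KD1, where 6.55% and 7.51% of all genes did so.

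Of the other genes of the pathway, 136 of 145 listed were tested. At an adjusted p under 0.05, 7 were higher (5.15%, against 9.71% of all genes) and 4 lower (2.94%, against 11.5%) in KD1, and 9 were higher (6.62%, against 11.3%) and 4 lower (2.94%, against 12.3%) in KD2. With a replicate block in the fit, 3 were higher and 0 lower in KD1, where 2.94% and 4.19% of all genes were. In KD2 these counts were 2 and 1, beside 3.11% and 4.44%. Without the block, 5.13% of all genes were past the threshold as lower in KD1 and 5.2% in KD2. Among the 136 this was 1 gene in each knockdown, nod, a kinesin-like protein that pushes chromosomes toward the spindle equator. It was counted at 244, 239 and 245.5 in lacZ, 181, 184 and 162.5 in KD1 and 147, 170.1 and 156 in KD2. All 6 knockdown samples lay below all lacZ samples, with log2 fold changes of -0.46 ± 0.12 in KD1 (adjusted p = 0.00152, DESeq2) and -0.62 ± 0.12 in KD2 (adjusted p = 8.78e-06). With a normal prior on fold changes nod was not past the threshold in KD1 (-0.37). With a replicate block in the fit it was not past it in KD1 either (-0.42, adjusted p = 0.176, DESeq2), but it was in KD2 (-0.58, adjusted p = 0.0285). Of the genes that were lower, nod alone is named. The others in KD1 were 1 origin licensing and firing gene, 1 G2/M regulator and 1 cytokinesis gene. In KD2 they were 1 G2/M regulator, 1 chromosomal passenger or kinetochore gene and 1 cytokinesis gene. The genes that were higher are all named here, after their values were seen, with log2 fold changes, so the names show 1 side only. In both knockdowns (KD1, then KD2) they were the clamp loader subunit RfC4 (0.30 and 0.27), the single-strand binding protein RPA1 (0.33 and 0.34), DNAlig1, which joins Okazaki fragments (0.27 and 0.29), the thymidylate synthase Ts (0.30 and 0.24), the checkpoint protein Mad1 (0.25 and 0.25) and the centrosome protein cnn (0.28 and 0.34). The flap endonuclease Fen1 was called in KD1 alone (0.21). The polymerase subunit PolE1 (0.18), the phosphatase subunit mts (0.11) and the cytokinesis factor pbl (0.18) were called in KD2 alone. Between KD1 and KD2 0 of the 136 genes passed the test. These genes are not followed singly over the alternatives here. Without lacZ replicate 2, 23 of the 136 were higher in KD1 and 25 in KD2, beside 11.1% and 12.4% of all genes. Without lacZ replicate 1 it was 5 and 4 (5.23% and 6.43% of all genes), and without lacZ replicate 3 it was 4 and 4 (5.43% and 6.82%). By role, 0 of 14 origin licensing and firing genes were higher in either knockdown, and 0 and 1 of 9 polymerase and primase genes. Of 7 clamp loader, RPA, ligase and flap genes 4 and 3 were higher. Of 9 nucleotide supply and chromatin assembly genes it was 1 and 1, and of 86 mitotic genes 2 and 4. All genes tested were higher at 9.71% and 11.3%. On the lower side was 1 of the 14 origin genes, in KD1, and 0 of the other S-phase genes. Of the 86 mitotic genes 3 were lower in KD1 and 4 in KD2, where 11.5% and 12.3% of all genes were. Of 11 G1/S genes 0 were called in either direction in either knockdown. No role was tested as a group.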

How the data were processed

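The deposited files hold raw read counts per gene for each sample. The authors aligned paired-end reads of stranded poly(A) libraries (500 ng of RNA, 11 PCR cycles) to BDGP6 with STAR (2.5.1b), kept primary alignments and counted reads per gene with featureCounts (Subread 1.4.6-p2). The strand setting is not given in the sources used here. Positions and exon lengths are from Ensembl release 115 of the same assembly.

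Genes with a mean CPM above 1 were kept (at least 99.91% of counts). Counts were scaled by size factors (0.9043 to 1.07) to normalised read counts. All 9 samples entered a DESeq2 fit (1.42.0, R 4.3.3) by group, with Wald tests, Benjamini-Hochberg adjustment over all genes and independent filtering at an alpha of 0.1, after the methods of the study. Past the threshold meant an adjusted p-value under 0.05 and a fold change above 1.3. The procedure was tested on simulated data.

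Values in every sample are given for all members, because fewer than 10 had an adjusted p under 0.05. Other pathway genes were to be named if past the threshold in both knockdowns or between them. Those called higher at the adjusted p alone were named beyond this rule, after their values were seen. The members and lists were chosen with earlier results of these data known. Alternatives were edgeR (4.0.16) quasi-likelihood tests, TMM factors, no filter, an RPKM filter, fits of the compared groups alone, a normal prior on fold changes, no fold requirement, a replicate block and leaving out each sample. Leaving out lacZ replicate 2 and KD2 replicate 2 together was added after seeing the data.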

Additional observations from a re-analysis of the deposited data

How the results depend on the processing

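Against 546 genes past the threshold in KD1, 602 in KD2 and 1 between the knockdowns, a normal prior on fold changes gave 340 and 392, and dropping the fold requirement gave 1571, 1745 and 12, with 3 and 5 of the 36 members. Leaving out single samples gave 0 to 1 members past the threshold in KD2 (Mps1, without lacZ replicate 2 or KD2 replicate 2), 1 to 4 genes between KD1 and KD2, S-phase medians of 0.082 to 0.198 in KD1 and 0.041 to 0.156 in KD2, and mitotic medians of 0.007 to 0.083 in KD1 and -0.015 to 0.061 in KD2. Leaving out lacZ replicate 2 and KD2 replicate 2 together, chosen after seeing the data, gave 2 members in KD2, an S-phase median log2 fold change of 0.21 in KD2 and 2 genes between the knockdowns. The cause was not tested. No direction of a called value turned, but the mitotic median in KD2 changed sign in 4 of 9 such fits and with the block (-0.013).

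A replicate block gave 322 and 344 genes, and 0 of 36 members at an adjusted p under 0.05 in every comparison. Whether the numbers pair the samples is not settled. The 6 same-numbered pairs had a mean correlation of deviations of -0.06 (2 of 6 over 0.1), against 0.02 for 21 other pairs. The pairs are few and deviations within a group are tied to each other, so this comparison cannot decide it.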
